A study of Mus musculus with 20 samples.

Results

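The genes described here encode the invariant chains of the T cell receptor complex, *Cd3d*, *Cd3e*, *Cd3g* and *Cd247*, and the coreceptors that define the main T cell lineages, *Cd4*, *Cd8a* and *Cd8b1*. These 7 genes were taken by symbol from the 20188 genes listed for the tumors, and all 7 were found. Each was compared between sh4 and scr tumors, over all tumors and within each experiment, and its level in cultured tumor cells was taken as the background without T cells. The study asked how lowering *Rnaseh2c*, which encodes a scaffold subunit of the RNase H2 enzyme, changed gene expression in a metastatic mammary tumor and the host tissue within it. The tumor RNA came from 3 sh4 and 3 scr primary tumors, and total RNA of the cells came from 3 sh4 and 3 scr culture plates.

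The sh4 groups carried a lentiviral shRNA against *Rnaseh2c* and the scr groups a scramble shRNA, both in Mvt1, a mouse mammary carcinoma line of FVB background, and both kept under puromycin selection after transduction. Both tumor groups grew in the fourth mammary fat pad of virgin female FVB/nJ mice obtained at about 6 weeks of age. These hosts have their own immune system. The labels give day 30 after implantation and the methods days 28 to 31. Each of 3 experiments gave 1 tumor per group, and RNA was taken from small sections of tumor. The sh4 arm is a single knockdown line, so the shRNA and the line that carries it cannot be told apart. *Rnaseh2c* was at 10.2, 22.4 and 19.8 RPKM in sh4 tumors 1 to 3, against 26.9, 52.0 and 25.9 RPKM in scr tumors 1 to 3. RPKM is the number of reads on a gene scaled to its length and to the reads of the library. Every sh4 tumor lay below every scr tumor for the shRNA target, with a log2 difference of -0.98 ± 0.37 (SE).

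A T cell receptor recognises antigen through its variable chains, which have almost no part inside the cell. Signals pass instead through the CD3 δ, ε and γ chains and the ζ chain encoded by *Cd247*, which hold tyrosine pairs called ITAMs that the kinase LCK phosphorylates and ZAP-70 then binds. CD4 binds MHC class II and marks helper and regulatory T cells. CD8, a pair of α and β chains on most cytotoxic T cells, binds MHC class I. CD8α also occurs without CD8β on certain dendritic cells of mouse lymphoid tissue, CD4 also occurs on some dendritic cells, and the ζ chain is shared with NK cells.

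The coding stretches that carry these signals are shown because they separate the genes by role. They were read from GENCODE vM1 transcripts on NCBIM37, the mm9 build to which the tumor reads were aligned. Capitals mark the tyrosine codons of each ITAM or, in the coreceptors, the cysteine codons of the site that holds LCK.

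Cd3d ITAM: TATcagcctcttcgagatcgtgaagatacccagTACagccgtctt
Cd3e ITAM: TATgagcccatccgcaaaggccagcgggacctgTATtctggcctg
Cd3g ITAM: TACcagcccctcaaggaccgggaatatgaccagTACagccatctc
Cd247 ITAM 1: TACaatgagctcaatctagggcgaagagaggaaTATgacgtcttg
Cd247 ITAM 2: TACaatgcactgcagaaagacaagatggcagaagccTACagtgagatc
Cd247 ITAM 3: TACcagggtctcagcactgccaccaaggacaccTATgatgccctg
Cd4 LCK site: aagaagaccTGCcagTGCccccaccggatg
Cd8a LCK site: aagcgtgttTGCaaaTGTcccaggccgcta

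The *Cd3d*, *Cd3e* and *Cd3g* transcripts encode 1 ITAM each and the *Cd247* transcript used here encodes 3. The second tyrosine codon stands 11 codons after the first in every ITAM except the second of *Cd247*, where it stands 12 codons after. Each of these stretches crosses an exon junction, for example exons 4 and 5 in *Cd3d*, exons 7 and 8 in *Cd3e* and exons 5 and 6 in *Cd3g*. No cysteine pair of this kind was found in the coding sequence of *Cd8b1*.

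The genes lie in 4 places of the mm9 genome. On chromosome 9, *Cd3g* (44777655 to 44788514, minus strand), *Cd3d* (44789876 to 44795135, plus strand) and *Cd3e* (44806826 to 44817673, minus strand) are neighbours. *Cd3g* and *Cd3d* are transcribed away from each other across a gap of 1361 bases, and 11690 bases separate *Cd3d* from *Cd3e*. On chromosome 6, *Cd8b1* (71272830 to 71287471) and *Cd8a* (71323421 to 71329165) lie on the plus strand 35949 bases apart, and *Cd4* lies far from them (124814710 to 124838239, minus strand). *Cd247* is on chromosome 1 (167718812 to 167807407, plus strand).

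Promoter sequence is shown for *Cd3d*, *Cd3g* and *Cd8a*, members whose groups did not overlap, and for *Cd3e*, a neighbour whose groups did. The 250 bases before each start site come from RefSeq on GRCm38.p6 and are written 5′ to 3′ on the gene's strand. Of the 7 genes, 5 matched this table, and *Cd4* and *Cd8b1* were not among them. Capitals mark AGGAAG, the core of sites bound by ETS factors, on either strand. In *Cd3g* they mark a motif of the GATA factor family (AGATAA).

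Cd3d, chr9:44981536-44981785: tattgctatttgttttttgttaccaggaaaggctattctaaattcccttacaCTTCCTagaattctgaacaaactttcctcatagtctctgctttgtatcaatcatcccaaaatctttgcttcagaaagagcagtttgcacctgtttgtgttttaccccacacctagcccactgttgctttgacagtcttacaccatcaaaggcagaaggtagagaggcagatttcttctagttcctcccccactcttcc
Cd3g, chr9:44980432-44980681: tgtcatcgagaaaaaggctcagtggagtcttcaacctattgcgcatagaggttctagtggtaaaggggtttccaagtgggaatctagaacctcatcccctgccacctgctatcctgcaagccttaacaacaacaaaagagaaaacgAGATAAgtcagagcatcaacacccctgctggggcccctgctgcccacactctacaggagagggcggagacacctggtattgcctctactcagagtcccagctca
Cd3e, chr9:45009612-45009861: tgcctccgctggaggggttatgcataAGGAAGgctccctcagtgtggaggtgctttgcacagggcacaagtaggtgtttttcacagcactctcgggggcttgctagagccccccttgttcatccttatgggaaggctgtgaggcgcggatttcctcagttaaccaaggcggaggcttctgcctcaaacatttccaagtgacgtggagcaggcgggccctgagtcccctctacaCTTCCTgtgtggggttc
Cd8a, chr6:71373177-71373426: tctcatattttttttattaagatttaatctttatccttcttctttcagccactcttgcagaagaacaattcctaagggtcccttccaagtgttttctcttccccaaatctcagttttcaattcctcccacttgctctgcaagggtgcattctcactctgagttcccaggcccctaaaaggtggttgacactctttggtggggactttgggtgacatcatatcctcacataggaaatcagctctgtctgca

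AGGAAG occurred in 3 of the 5 promoters, 2 times in *Cd3e* and 1 time each in *Cd3d* and *Cd247*, and it occurred in 29.2% of the 27025 promoters of the same length in the table. The GATA family motif occurred only in *Cd3g* of the 5, against 10.3% of all promoters. TGTGGT, the RUNX motif, occurred in none of the 5 and in 14.2% of all promoters, and TATAAA, the TATA box, in none of the 5 and in 13.0% of all. The E-box CANNTG occurred in all 5 and in 66.0% of all promoters. These motifs were searched on both strands and no match is read as a site in use. No marked motif was found in more than 1 of the *Cd3d*, *Cd3g* and *Cd8a* promoters.

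Tumor RPKM values are whole multiples of a step for 99.1% of the genes above 0 (within a tolerance of 1e-05), which gives back the reads behind a value as the smallest whole numbers that fit. The step alone implies about 26528000 to 26591000 reads per library. Whether the libraries held these numbers, were subsampled to them or were divided by a nearly common number could not be settled, so the true depths are not known and the read counts below are implied ones. The 7 genes rested on 39 to 1370 reads per tumor, and the counting error (SD as a share of the value) was at most 16.0%. The spread between tumors of a group was mostly larger, from 12.5% for *Cd4* in sh4 tumors to 61.9% for *Cd8a* in scr tumors. Libraries also differed in the balance of short against long transcripts. Genes with transcripts shorter than 1000 bases were set against those longer than 4000 bases by the difference of their median log2 deviations, which was -0.37, 0.42 and 0.06 in sh4 tumors 1 to 3, against -0.21, 0.31 and -0.30 in scr tumors 1 to 3. Short transcripts stood highest in both tumors of experiment 2. Adipocyte genes were far above the other tumors in scr tumor 2, where 8 of them summed to 2544 RPKM, against 46.9 to 314 RPKM in sh4 tumors and 40.8 and 274 RPKM in scr tumors 1 and 3.

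All 7 genes had a positive log2 difference between sh4 and scr tumors, as did 42.6% of all genes tested. *Cd3d*, *Cd3g*, *Cd8a* and *Cd8b1* were higher in every sh4 tumor than in every scr tumor, by 2.6 to 3.4 times as a ratio of group means, while the groups overlapped for *Cd3e*, *Cd247* and *Cd4*. With limma on log2(RPKM + 0.5), a scale that understates differences of low genes, no member passed an adjusted p under 0.05 over 13487 genes, and no gene did (0%). At an unadjusted p under 0.05, 4 of 7 members were higher in sh4 tumors, against 2.16% of all genes tested. All 3 sh4 values lay above all 3 scr values for 4 of 7 members and for 4.19% of all genes, and the log2 difference reached 1 in the same 4 members and in 0.504% of all genes. The median log2 difference was 1.22 over the members and -0.04 over all genes. The study names *Cd3d*, *Cd3g*, *Cd8a* and *Cd8b1* in pathway lists drawn from these same tumors, so their direction here is not independent evidence. In bulk tumor RNA, fewer cells of a type and less RNA per cell cannot be told apart.

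**Figure D1:**
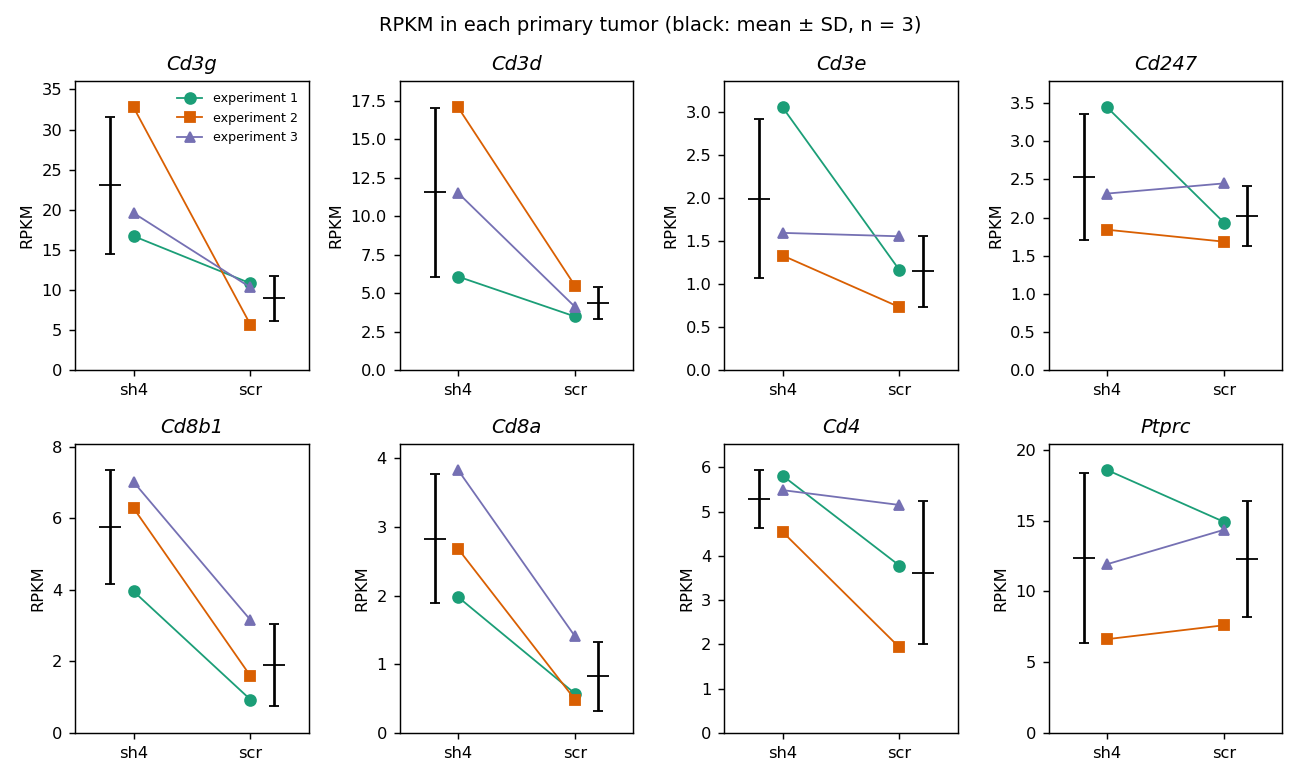
RPKM of the 7 genes and of *Ptprc* in each primary tumor, sh4 left of scr, with lines joining the tumors of an experiment and black bars for the mean ± SD (n = 3). The groups do not overlap for *Cd3g*, *Cd3d*, *Cd8b1* and *Cd8a* and overlap for *Cd3e*, *Cd247*, *Cd4* and *Ptprc*.

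*Cd3g*, the γ chain that pairs with ε in the receptor complex, had the highest level of the 7 genes per length in all 6 tumors. It was at 16.7, 32.8 and 19.6 RPKM in sh4 tumors 1 to 3, against 10.8, 5.67 and 10.3 RPKM in scr tumors 1 to 3. The lowest sh4 tumor stood above the highest scr tumor, and experiment 2 held both the highest sh4 and the lowest scr value. The group means were 23.0 ± 8.56 RPKM in sh4 tumors and 8.94 ± 2.84 RPKM in scr tumors (SD, n = 3 each). The log2 difference was 1.31 ± 0.33 (SE), with limma's unadjusted p = 0.00422 and adjusted p = 0.991, and the exact two-sided permutation test over tumors gave p = 0.1, the smallest that 3 against 3 allow. Without both tumors of experiment 2 the log2 difference was 0.75, and *Cd3g* was 1.54 and 1.90 times higher in the sh4 tumor of experiments 1 and 3.

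*Cd3d*, the δ chain that also pairs with ε, followed the same grouping at a lower level. It was at 6.08, 17.1 and 11.5 RPKM in sh4 tumors 1 to 3, against 3.49, 5.49 and 4.12 RPKM in scr tumors 1 to 3. Sh4 tumor 1 exceeded the highest scr tumor only narrowly, and sh4 tumor 2 was the highest. The reads behind these values were 300, 841 and 567 in sh4 tumors, against 172, 270 and 203 in scr tumors. The log2 difference was 1.22 ± 0.36 (SE), with limma's unadjusted p = 0.0106 and adjusted p = 0.995, and 0.89 without sh4 tumor 2. *Cd3d* and *Cd3g* have short transcripts (1323 and 1023 bases in the annotation), and both were highest in sh4 tumor 2, where short transcripts stood highest. With the balance of short against long transcripts as a covariate the log2 differences were 1.08 for *Cd3d* and 1.30 for *Cd3g*.

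*Cd3e*, the ε chain present in both CD3 pairs, did not separate the groups. It was at 3.05, 1.33 and 1.59 RPKM in sh4 tumors 1 to 3, against 1.16, 0.732 and 1.55 RPKM in scr tumors 1 to 3. Sh4 tumor 2 lay below scr tumor 3, and in experiment 3 the pair differed by less than counting error (ratio 1.03, 95% interval 0.749 to 1.40). For *Cd3e* the log2 difference was 0.57 ± 0.31 (SE), with limma's unadjusted p = 0.111 and adjusted p = 0.995, and it was 0.28 without sh4 tumor 1. *Cd3e* rested on few reads, 163, 71 and 85 in sh4 tumors, against 62, 39 and 83 in scr tumors.

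*Cd247*, the ζ chain, differed least. It was at 3.44, 1.84 and 2.31 RPKM in sh4 tumors 1 to 3, against 1.93, 1.68 and 2.45 RPKM in scr tumors 1 to 3. Only sh4 tumor 1 stood above all scr tumors, and in experiment 3 the scr tumor was the higher of the pair. For *Cd247* the log2 difference was 0.24 ± 0.26 (SE), with limma's unadjusted p = 0.377 and adjusted p = 0.995, and it was 0.04 without sh4 tumor 1. The 3′ part of *Cd247* overlaps *Pou2f1*, a widely expressed transcription factor gene on the opposite strand, over 3005 of its 5372 annotated exon bases. Whether reads were counted by strand is not stated, so reads of the pair cannot be told apart. *Pou2f1* was listed at 0.239, 0.0598 and 0.0448 RPKM in sh4 tumors, against 0.224, 0.0449 and 0.119 RPKM in scr tumors. The smallest whole numbers that fit these values are 3 to 16 reads per tumor, with an implied gene length of 2521.5 bases. That is not a whole length and is far below the 13022 bases of the longest annotated transcript. The true reads were thus probably a multiple of these numbers, and the precision of the *Pou2f1* level in tumors is not known.

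*Cd8a*, the α chain of the CD8 coreceptor, had a ratio of group means of 3.44. It was at 1.98, 2.68 and 3.83 RPKM in sh4 tumors 1 to 3, against 0.573, 0.486 and 1.41 RPKM in scr tumors 1 to 3. Every sh4 value was above every scr value, and scr tumor 3 was well above the other two scr tumors. The reads were 204, 276 and 394 in sh4 tumors, against 59, 50 and 145 in scr tumors. The log2 difference was 1.36 ± 0.32 (SE), with limma's unadjusted p = 0.0033 and adjusted p = 0.991, and p = 0.1 in the exact permutation test. It ranged from 1.15 to 1.66 with any 1 tumor left out.

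*Cd8b1*, the β chain found on conventional CD8 T cells, showed a similar split between the groups. It was at 3.96, 6.29 and 7.02 RPKM in sh4 tumors 1 to 3, against 0.931, 1.59 and 3.16 RPKM in scr tumors 1 to 3. The groups did not overlap, and scr tumor 3 was again the highest scr tumor. The means were 5.76 ± 1.60 RPKM in sh4 tumors and 1.89 ± 1.14 RPKM in scr tumors (SD, n = 3 each). The log2 difference was 1.46 ± 0.38 (SE), with limma's unadjusted p = 0.00507 and adjusted p = 0.991, and it ranged from 1.14 to 1.82 with any 1 tumor left out.

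*Cd4*, the coreceptor of helper and regulatory T cells, was at 5.81, 4.54 and 5.48 RPKM in sh4 tumors 1 to 3, against 3.78, 1.93 and 5.15 RPKM in scr tumors 1 to 3. Scr tumor 3 lay within the sh4 range, and scr tumor 2, the tumor with high adipocyte genes, was lowest. The sh4 tumors were close to each other (5.28 ± 0.660 RPKM) and the scr tumors were not (3.62 ± 1.61 RPKM, SD, n = 3 each). For *Cd4* the log2 difference was 0.57 ± 0.32 (SE), with limma's unadjusted p = 0.119 and adjusted p = 0.995, and it fell to 0.23 without scr tumor 2.

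Scr tumor 2 held the lowest value of the 6 tumors for *Cd3e*, *Cd3g*, *Cd247*, *Cd4* and *Cd8a*, but for *Cd3d* it was the highest scr tumor. Without it, the log2 differences were 1.38 for *Cd3d*, 1.03 for *Cd3g*, 1.18 for *Cd8a* and 1.42 for *Cd8b1*, and 0.37 for *Cd3e*, 0.15 for *Cd247* and 0.23 for *Cd4*. *Cd3d*, *Cd3g*, *Cd8a* and *Cd8b1* kept an unadjusted limma p under 0.05 without scr tumor 2 (0.0109, 0.0104, 0.0121 and 0.0144). The part of fat tissue in the differences that shrank was not tested.

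Within experiments, the sh4 tumor was the higher one in 20 of 21 pairs of values, and 6 of 7 members were higher in sh4 in each of the 3 experiments, against 11.9% of all genes tested. The exception was *Cd247* in experiment 3. For *Cd8a* the sh4 tumor was 3.45, 5.52 and 2.72 times the scr tumor in experiments 1 to 3, and the lowest 95% limit from read counts was 2.24. For *Cd8b1* it was 4.25, 3.95 and 2.22 times, and for *Cd3d* 1.74, 3.11 and 2.80 times. *Cd3g* was the least even, at 1.54, 5.78 and 1.90 times. The intervals are exact binomial (Clopper-Pearson) and cover counting error only, since PCR copies of a molecule are not separate molecules.

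With the experiment number as a block in limma, unadjusted p was 0.000344 for *Cd8a*, 0.000383 for *Cd8b1*, 0.00117 for *Cd3d* and 0.00813 for *Cd3g*. It was 0.0581 for *Cd3e*, 0.0533 for *Cd4* and 0.321 for *Cd247*. The same 4 of 7 members were then higher at an unadjusted p under 0.05, against 3.06% of all genes, and the adjusted p stayed at 0.387 or more for every member. The block raised the number of genes at an unadjusted p under 0.05 to 413 higher and 498 lower in sh4 tumors, against 291 higher and 273 lower without it.

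**Figure D2:**
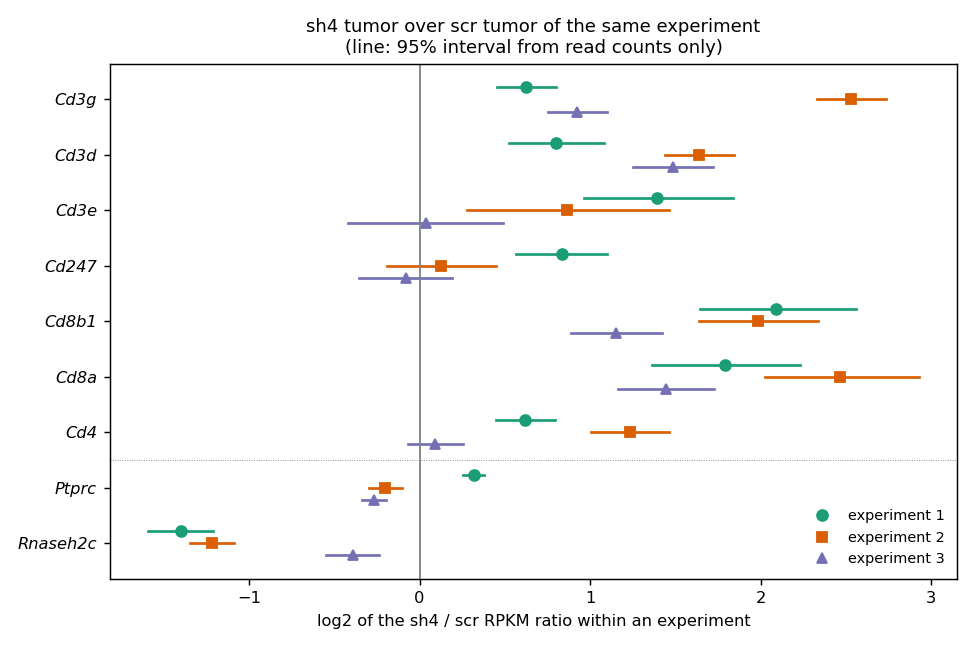
Log2 ratio of the sh4 to the scr tumor of the same experiment for each gene, with 95% intervals from read counts only. *Cd3g*, *Cd3d*, *Cd8b1* and *Cd8a* lie right of 0 in all 3 experiments. The intervals of *Cd3e*, *Cd247* and *Cd4* reach 0 in experiment 3, and that of *Cd247* also does in experiment 2. *Rnaseh2c* lies left of 0 throughout.

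The balance between the coreceptors differed between the groups. The ratio of *Cd8a* to *Cd4* RPKM was 0.341, 0.591 and 0.698 in sh4 tumors 1 to 3, against 0.152, 0.252 and 0.273 in scr tumors 1 to 3. The groups did not overlap, and within experiments 1 to 3 the sh4 ratio was 2.25, 2.35 and 2.55 times the scr ratio, the most even of the within-tumor ratios given here. The ratio of *Cd8b1* to *Cd4* was 0.681, 1.38 and 1.28 in sh4 tumors, against 0.246, 0.824 and 0.613 in scr tumors, higher in sh4 in all 3 experiments but with sh4 tumor 1 below scr tumor 2. These ratios are a description with no test.

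The CD8 chains stayed closer to each other than to most other members. *Cd8b1* over *Cd8a* was 2.00, 2.34 and 1.83 in sh4 tumors, against 1.63, 3.27 and 2.24 in scr tumors, and the groups overlapped. Over the 6 tumors the log2 ratio of *Cd8a* to *Cd8b1* had an SD of 0.35. Only *Cd3e* with *Cd4* (0.34) and *Cd3e* with *Cd247* (0.34) varied less, of 21 pairs of members. Ratios between genes rest on the gene length used, and with annotated transcript lengths *Cd8b1* over *Cd8a* would be 1.17 times as high in every tumor.

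The CD3 chains, which assemble in fixed proportion in the receptor, did not keep a fixed ratio in the RNA. *Cd3e* over *Cd3g* was 0.183, 0.0406 and 0.0814 in sh4 tumors, against 0.107, 0.129 and 0.151 in scr tumors. Sh4 tumors 2 and 3 lay below all scr tumors and sh4 tumor 1 above them. *Cd3d* over *Cd3g* was 0.364, 0.521 and 0.588 in sh4 tumors, against 0.322, 0.967 and 0.399 in scr tumors, with the groups overlapping. The log2 ratio of *Cd3d* to *Cd3e* had an SD of 1.06 over the 6 tumors, among the largest of the 21 pairs. Across tumors *Cd3d* was highest in both tumors of experiment 2 within their groups and *Cd3e* lowest. The annotated transcripts of these genes are of like length (1323 and 1436 bases), and why they went opposite ways was not tested. The balance of short against long transcripts was also highest in both tumors of experiment 2. With that balance as a covariate, *Cd3e* had a log2 difference of 0.69 (limma's unadjusted p = 0.00294) and *Cd4* of 0.67 (limma's unadjusted p = 0.0192). That made 6 of 7 members higher at an unadjusted p under 0.05, against 4.28% of all genes, and *Cd247* was at an unadjusted limma p of 0.0609.

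**Figure D3:**
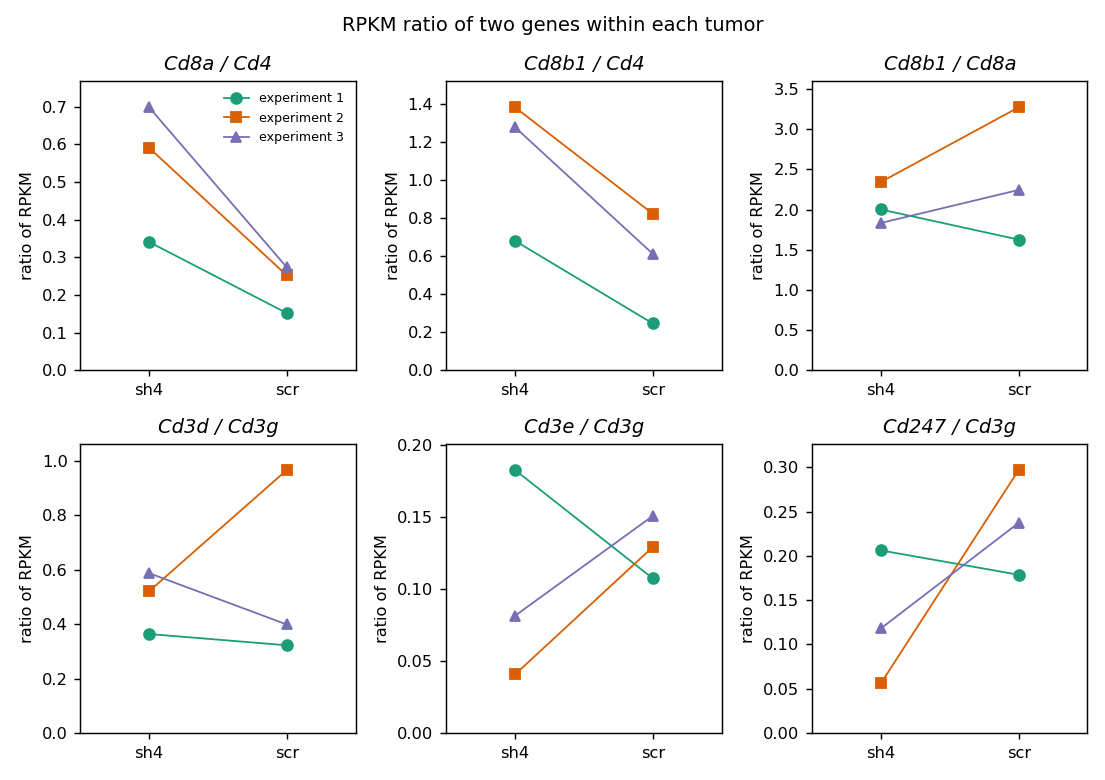
Ratio of RPKM between 2 genes within each tumor, sh4 left of scr, with lines joining the tumors of an experiment. *Cd8a* over *Cd4* separates the groups, with 0.341 to 0.698 in sh4 and 0.152 to 0.273 in scr tumors, and the other 5 ratios overlap.

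The members were also set against *Ptprc*, which encodes the leukocyte surface phosphatase CD45. *Ptprc* was at 18.6, 6.62 and 11.9 RPKM in sh4 tumors 1 to 3, against 14.9, 7.61 and 14.4 RPKM in scr tumors 1 to 3, lowest in both tumors of experiment 2. Its log2 difference was -0.05 ± 0.40 (SE), with limma's unadjusted p = 0.912, and turned positive under other scalings (0.04 with quantile normalization). *Cd8a* over *Ptprc* was 0.107, 0.405 and 0.321 in sh4 tumors, against 0.0384, 0.0639 and 0.0980 in scr tumors. *Cd3g* over *Ptprc* was 0.900, 4.95 and 1.64 in sh4 tumors, against 0.726, 0.746 and 0.719 in scr tumors. The scr tumors were almost equal in this last ratio and the sh4 tumors lay above them, sh4 tumor 1 by little and sh4 tumor 2 by most. The longest annotated transcripts of *Cd3g* and *Ptprc* differ in length (1023 and 5814 bases), and short transcripts stood highest in both tumors of experiment 2. The part of that balance in the ratios to *Ptprc* was not tested. *Cd3e* over *Ptprc* also separated the groups, at 0.164, 0.201 and 0.134 in sh4 tumors, against 0.0779, 0.0962 and 0.108 in scr tumors. For the other members, *Cd3d*, *Cd247*, *Cd4* and *Cd8b1*, the ratio to *Ptprc* overlapped between the groups. *Cd8b1* over *Ptprc*, for example, was 0.213, 0.949 and 0.589 in sh4 tumors, against 0.0625, 0.209 and 0.220 in scr tumors.

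The order of levels per length was alike in the tumors. *Cd3g* ranked 1 in all 6 and *Cd3d* ranked 2 or 3. *Cd8a* ranked 7 in all 3 scr tumors, but 5 in sh4 tumors 2 and 3. In scr tumors *Cd3d* (4.36 ± 1.02 RPKM) and *Cd4* (3.62 ± 1.61 RPKM, SD, n = 3 each) did not differ beyond their spread, nor did *Cd247* (2.02 ± 0.389 RPKM) and *Cd8b1*. In sh4 tumors *Cd8b1* and *Cd4* did not, nor did *Cd8a* (2.83 ± 0.934 RPKM), *Cd247* (2.53 ± 0.824 RPKM) and *Cd3e* (1.99 ± 0.927 RPKM). In scr tumors *Cd3e* was at 1.15 ± 0.411 RPKM and *Cd8a* at 0.822 ± 0.509 RPKM.

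Cultured Mvt1 cells gave the level of these genes without T cells. *Cd3d*, *Cd3e* and *Cd3g* were listed at 0 FPKM (fragments per kilobase, scaled to read number) in all 6 cell libraries, while 0 of 12 housekeeping genes were at 0 in any of them. *Cd4* was above 0 only in sh4 plate 2 (0.00397 FPKM) and *Cd8b1* only in sh4 plate 1 (0.0202 FPKM). *Cd8a* was at 0, 0.00597 and 0.0110 FPKM in sh4 plates 1 to 3, against 0, 0.0218 and 0 FPKM in scr plates 1 to 3. The lowest tumor value of these 6 genes was 0.486 RPKM, for *Cd8a*. The tables were normalized separately and from different kinds of RNA library, so tumor and cell values are set side by side without a ratio.

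*Cd247* was the exception. It was at 1.26, 1.17 and 1.36 FPKM in sh4 plates 1 to 3, against 1.63, 1.30 and 1.26 FPKM in scr plates 1 to 3, and the groups overlapped. The log2 difference on log2(FPKM + 0.5) was -0.10 ± 0.10 (SE), with limma's unadjusted p = 0.342 and adjusted p = 0.616, in a comparison that called 1.28% of 21106 genes and had 18.9% at an unadjusted p under 0.05. *Pou2f1*, the gene that overlaps it, was at 1.05, 1.06 and 1.11 FPKM in sh4 plates, against 1.43, 1.04 and 1.07 FPKM in scr plates, and was highest in the same library as *Cd247*. *Ptprc* was at 0 in 5 of the 6 libraries and at 0.0143 FPKM in scr plate 1. The share of *Cd247* reads in cells and tumors that belongs to *Pou2f1* was not tested.

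**Figure D4:**
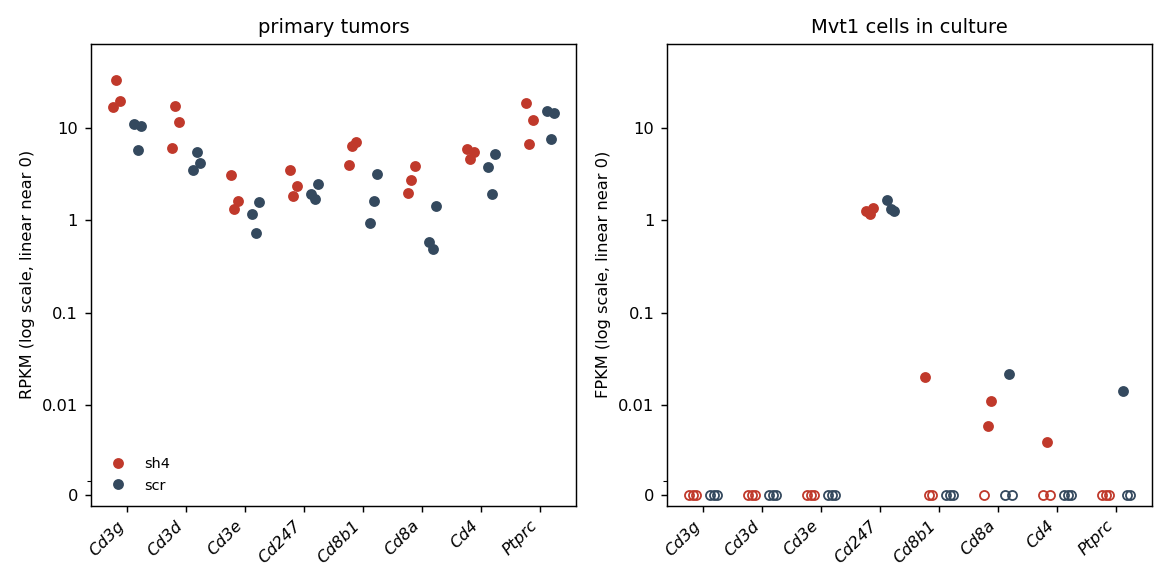
RPKM in primary tumors (left) and FPKM in cultured Mvt1 cells (right) for the 7 genes and *Ptprc*, on a log scale that is linear near 0, 1 point per library and open points at 0. In cells *Cd247* lies between 1.17 and 1.63 FPKM and the other genes are at 0 or below 0.03 FPKM.

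Genes that carry the signal onward from these receptors were partly higher in sh4 tumors. Of 41 signaling partners, 29 were positive and 12 negative in log2 difference, where 42.6% of all genes were positive. At an unadjusted limma p under 0.05, 10 were higher, against 2.16% of all genes, and 0 lower, with 0 called after adjustment. Their median log2 difference was 0.20, against -0.04 over all genes. *Cd6*, a surface receptor of T cells, was at 2.14, 2.84 and 2.55 RPKM in sh4 tumors, against 1.14, 0.906 and 1.23 RPKM in scr tumors. *Cd2*, an adhesion receptor of T and NK cells, was at 9.58, 15.2 and 11.9 RPKM in sh4 tumors, against 6.23, 4.94 and 6.64 RPKM in scr tumors. *Lat*, the adaptor that ZAP-70 phosphorylates, was at 6.73, 13.1 and 9.22 RPKM in sh4 tumors, against 4.58, 3.89 and 4.15 RPKM in scr tumors. The groups did not overlap for any of these 3 genes, with log2 differences of 0.92 for *Cd6*, 0.97 for *Cd2* and 1.07 for *Lat*. The most abundant partners, *Nck1* and *Csk*, which act in many cell types, had log2 differences of -0.03 and -0.18.

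Transcription factors of the T lineage did not separate the groups. Of 11 genes, 9 were positive and 2 negative in log2 difference, where 42.6% of all genes were positive. None (0) had an unadjusted limma p under 0.05, and the median was 0.11, against -0.04 over all genes. In cultured cells 6 of the 11 averaged 0.1 FPKM or more, up to 14.5 FPKM, so the list does not stand for T cells alone. *Foxp3*, which defines regulatory T cells, was at 6.20, 10.8 and 8.02 RPKM in sh4 tumors, against 5.71, 7.57 and 5.67 RPKM in scr tumors. *Tbx21*, the factor of type 1 T cells, was at 0.526, 0.981 and 1.21 RPKM in sh4 tumors, against 0.472, 0.563 and 0.617 RPKM in scr tumors. *Zbtb7b*, which sets the CD4 lineage, had a log2 difference of -0.36. The groups overlapped for each of these genes.

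Markers of the other cells that could hold these transcripts were read in the same way. Of 7 NK cell genes tested, which bear on *Cd247* and *Cd2*, 4 were positive and 3 negative in log2 difference, 0 had an unadjusted limma p under 0.05, and the summed level of the list was 14.4 to 29.5 RPKM in sh4 tumors, against 12.3 to 24.5 RPKM in scr tumors. The NK receptor gene *Ncr1* was at 7.80, 2.74 and 4.92 RPKM in sh4 tumors, against 7.07, 4.04 and 6.48 RPKM in scr tumors, so the groups overlapped. Of 8 genes of the dendritic cells known to carry CD8α, 7 had a positive log2 difference, against 42.6% of all genes, and 0 had an unadjusted limma p under 0.05. The list summed to 65.0 to 72.9 RPKM in sh4 tumors, against 55.8 to 66.9 RPKM in scr tumors. Its largest parts were *Cadm1* (means of 29.4 RPKM in sh4 and 28.8 RPKM in scr tumors) and *Irf8* (19.3 and 17.4 RPKM). In cultured cells 5 of the 8 genes averaged 0.1 FPKM or more, up to 21.6 FPKM, so the sum is not a level of dendritic cells alone. *Clec9a*, a receptor of these cells, was at 1.09, 0.853 and 1.65 RPKM in sh4 tumors, against 0.685, 0.872 and 0.778 RPKM in scr tumors. *Batf3*, the factor they need, had a log2 difference of 0.70 with overlapping groups. The part of these cells in the *Cd8a* difference was not tested. Of 10 symbols of T cell receptor constant genes that were looked up, 0 were listed for the tumors, so their level there is not known.

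Naive lymphocyte and lymph node genes also lay higher in sh4 tumors. Of 4 tested, 4 had a positive log2 difference, against 42.6% of all genes, and 0 were called after adjustment. At an unadjusted limma p under 0.05, 2 were higher, against 2.16% of all genes, the chemokine gene *Ccl19* (1.33, 2.01 and 1.15 RPKM in sh4 tumors, against 0.287, 0.467 and 0.251 RPKM in scr tumors) and its receptor gene *Ccr7* (6.37, 8.19 and 4.51 RPKM in sh4 tumors, against 3.96, 3.90 and 3.42 RPKM in scr tumors). Neither overlapped between the groups. The list summed to 8.82 to 11.6 RPKM in sh4 tumors, against 5.60 to 6.89 RPKM in scr tumors. The B cell gene *Cd79b* was at 3.19, 4.01 and 2.97 RPKM in sh4 tumors, against 1.95, 2.58 and 2.79 RPKM in scr tumors, and these groups did not overlap either. Whether lymph node tissue in a section has a part in the members' difference was not tested.

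Myeloid and tumor cell genes took no common direction. Among 9 macrophage genes 3 were positive and 6 negative in log2 difference, with a median of -0.19, and of 8 pan-leukocyte genes 4 had each sign, with a median of 0.01. *Cd52*, a small surface protein of lymphocytes and other leukocytes, was the only one of these 17 genes with an unadjusted limma p under 0.05 (log2 difference 0.45). Of 8 epithelial genes 4 had each sign, with a median of 0.05. The most abundant, *Krt8* and *Krt18*, had log2 differences of -0.39 and -0.10, against 0.22 for *Cdh1* and 0.13 for *Cldn7*, and the 8 genes summed to 415 to 745 RPKM in sh4 tumors, against 586 to 1106 RPKM in scr tumors. Of 3 other signal chains of myeloid and NK cells, *Fcer1g* and *Tyrobp* had log2 differences of -0.08 and -0.19 and *Hcst* of 0.52, with 0 at an unadjusted limma p under 0.05. All 8 adipocyte genes had a negative log2 difference, with 0 at an unadjusted limma p under 0.05 and sums that overlapped between the groups.

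**Figure D5:**
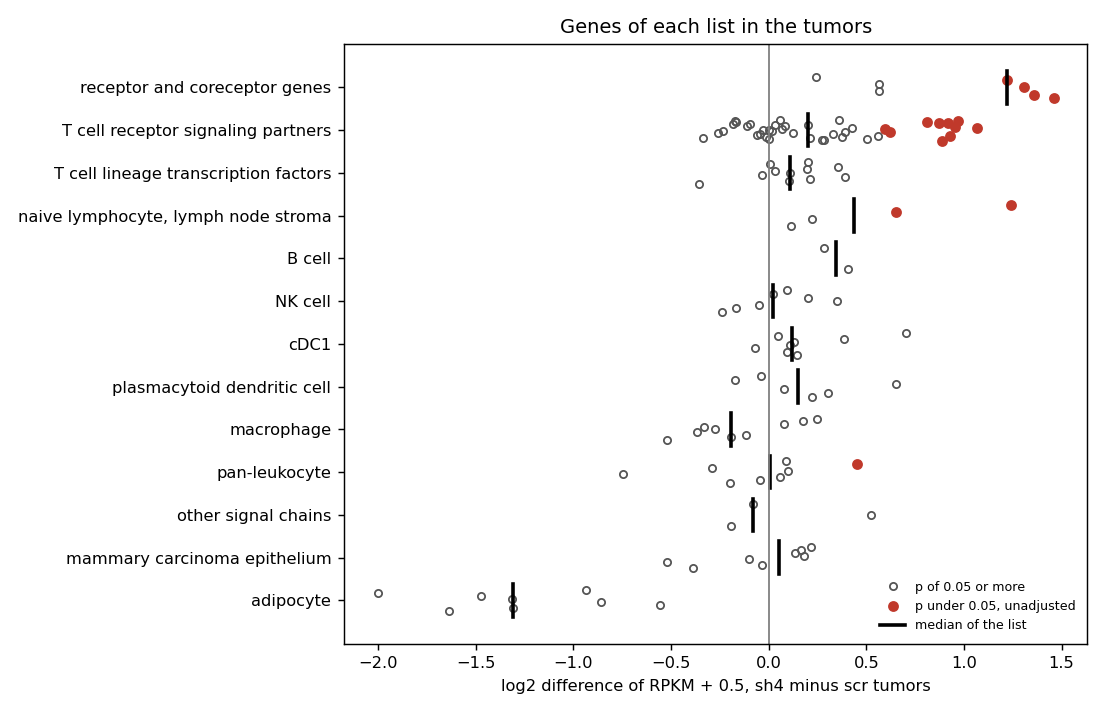
Log2 difference between sh4 and scr tumors for each tested gene of the lists, with filled points for an unadjusted limma p under 0.05 and a black line at the median of each list. The receptor and coreceptor genes have a median of 1.22, the signaling partners 0.20, the macrophage genes -0.19 and the adipocyte genes -1.31.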

How the data were processed

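The authors trimmed tumor reads (Trimmomatic), aligned them by Tophat to the mm9 build using Ensembl v70 and deposited RPKM per gene after work in Partek Genomics Suite. The authors also deposited FPKM of total RNA from cells, with a row for every Ensembl gene or assembled locus. The submitters' processing notes list STAR 2.7 and TopHat2 2.1.0. The counting program and its use of strand are not given in the sources used here. Assembled loci (239874 of 290541 rows) were left out. Exome libraries were not used here.

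The 7 genes, the gene lists and the rule for named genes were chosen with earlier results of these data known. By that rule the text names all members, *Rnaseh2c*, of each list the 3 genes with the smallest unadjusted p and the 2 most abundant, of which a part is printed, and the 10 genes most like the members. *Pou2f1* was added after its values were seen. Some genes of the lists are not reported here by name. Reads behind RPKM were recovered as the smallest whole numbers that fit the 6 tumors, with the depth set by 132 genes with 1 annotated transcript. Implied gene lengths of the 7 genes exceed annotated ones, so levels between genes depend on them.

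Genes with a mean of at least 0.1 were compared on log2(value + 0.5) by limma 3.58.1 (R 4.3.3), using a trend of the variance, and p-values were adjusted by the Benjamini-Hochberg method over all genes tested. Each tumor is from its own mouse. For cells nothing says that plates were separate cultures, and p-values there may measure technical spread. Experiment numbers pair the tumors per the labels, and the correlation of the pairs after removal of group means was 0.138, 0.330 and -0.117. The fit and the recovery of reads were tested on simulated data. Alternatives were a pseudocount of 0.1 or 1, other filters, quantile normalization, median-ratio scaling, the replicate block, no trend and leaving out each library. A transcript length covariate and leaving out experiment 2 were chosen after seeing the data.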

Additional observations from a re-analysis of the deposited data

How the results depend on the processing

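All 7 genes kept a positive log2 difference in tumors under every alternative run, and none passed an adjusted p under 0.05 under any. *Cd3d*, *Cd3g*, *Cd8a* and *Cd8b1* kept an unadjusted limma p under 0.05 under all 16 refits, and the number of members at that level was 4 to 6. No gene was called in tumors under any alternative. With 1 tumor left out, *Cd3e* ranged from 0.28 to 0.76, *Cd4* from 0.23 to 0.83 and *Cd247* from 0.04 to 0.41. The experiment block is given in the text and called 0 genes.

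The number of tumor genes at an unadjusted p under 0.05 without sh4 tumor 1 was 659 higher and 1377 lower. *Ptprc* turned positive with quantile normalization (0.040), median-ratio scaling (0.010), the length covariate (0.13), without experiment 2 (0.025) and without 1 tumor (-0.39 to 0.32 over the 6). In cells the 270 genes called became 77 with no filter, 408 at a mean of at least 1, 1223 with quantile normalization, 1045 with median-ratio scaling, 171 without the trend, 0 with the plate number as a replicate block and 2 to 242 without 1 library. The cause was not tested. After removal of group means, cell libraries of the same plate number had correlations of -0.06 to -0.08. Whether a plate number stands for a shared culture or run was not tested. *Cd247* in cells stayed negative throughout, between -0.15 and -0.01. With 3 tumors per group the exact permutation test cannot go below 0.1, and counting error limits *Cd3e* and *Cd8a* in scr tumors most (39 and 50 reads at the lowest).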

Other observations

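The genes whose pattern across the 6 tumors was most like the mean of the 7 members, after group means were removed, were *Gabbr1*, *Trim3*, *Pbx2*, *Rnaset2a*, *Rnf214*, *Slc25a15*, *AI506816*, *Pim2*, *Ipo13* and *Ly6e*. Pearson's r was 0.998 for *Gabbr1*, a GABA receptor subunit, and 0.988 for *Ly6e*, a GPI-anchored surface protein, among 10716 genes averaging 1 RPKM or more. The 6 points share libraries and groups, so these values are a description, and 35 genes were above 0.95. The members treated the same way did not share 1 pattern. Their r ran from 0.97 for *Cd3e* with *Cd247* to -0.90 for *Cd3d* with *Cd247*. Likeness to the mean is therefore not likeness to each member. *Ptprc* had an r of 0.18. The serine kinase gene *Pim2* was at 1.72, 1.83 and 1.82 RPKM in sh4 tumors, against 1.36, 1.21 and 1.84 RPKM in scr tumors. Scr tumor 3 was its highest scr tumor, as in the mean by which *Pim2* was chosen.

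The plasmacytoid dendritic cell gene *Siglech* was at 1.93, 2.34 and 2.46 RPKM in sh4 tumors, against 1.24, 1.24 and 3.08 RPKM in scr tumors, again highest in scr tumor 3 among scr tumors. Of 6 genes of these cells, 4 were positive and 2 negative in log2 difference, with 0 at an unadjusted limma p under 0.05.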
